A study of Caenorhabditis elegans with 2 samples.

Results

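The basic helix-loop-helix (bHLH) transcription factor genes of Caenorhabditis elegans were examined for binding of the T-box factor TBX-2 in first-stage larvae. The members were taken by name from the Ensembl annotation of the WBcel235 genome. They comprise the protein-coding genes whose names begin with hlh, mxl, mml or mdl, together with cnd-1, lin-32, ngn-1, sbp-1, hif-1, ahr-1 and aha-1, and 2 further hlh genes were not analysed here. This gave 35 of 19973 protein-coding genes. Chromatin immunoprecipitation followed by sequencing (ChIP-seq) had been done on whole hermaphrodites of strain OP159, genotype unc-119(ed3) III; wgIs159, which carries an integrated transgene that encodes a fusion of TBX-2 to GFP and FLAG at its C terminus. The animals were L1 larvae taken 6 h after synchronization by bleaching and starvation. There was 1 group with 2 biological replicates, so no condition, genotype or stage could be compared and no p-value is given. The labels disagree on the antibody. The description names one against GFP, which would recover the tagged transgene product only, whereas the antibody field gives tbx-2. The description is followed here, and if the field were right the endogenous protein would be recovered too. The promoter that drives the fusion is not given in the sources used here, and in whole animals the cells in which a site was occupied cannot be told.

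Proteins of the bHLH family bind DNA as dimers through a basic stretch. In many members, though not in all, it reads a short palindromic word called the E-box, CANNTG. The proneural members switch on neuronal fates, and the REF-1 family acts in Notch signalling in the embryo. The Max network, the PAS protein HIF-1 and the factors of lipid and lysosome control tie transcription to nutrients and oxygen. TBX-2 is known for its role in the development of pharyngeal muscle and reads a different word, the T-box site GGTGTGA.

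The values are peak lists. A list of 4384 summits on the ce11 assembly had passed the authors' irreproducible discovery rate (IDR) step, which compares the ranking of regions between replicates, and it holds exactly the strongest regions of a list of 30000 made from both replicates together, called the pooled list here. The peak signal of a region is the strength given by the authors' caller in units that no source used here gives, and rank 1 is the strongest region. Signals in the list ran from 76.8 to 1894 with a median of 145. No read counts were at hand, so the depth behind each value is unknown, and intervals below cover the counting of genes or summits only. The tbx-2 promoter itself held a summit of signal 925 at rank 54. This is no check of the tagged protein, since extra copies of that sequence in the transgene cannot be told apart from binding there.

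Promoters were taken to span from 1000 bp before to 200 bp past each start of a protein-coding transcript. The reach of a gene was the gene itself plus 5 kb to either side of each start. A promoter summit was found at 9 of the 35 bHLH genes (25.7%, 95% Clopper-Pearson interval 12.5 to 43.3%), against 15.6% of all protein-coding genes, which lies inside that interval. These were aha-1, ahr-1, hif-1, hlh-11, hlh-30, mdl-1, mml-1, mxl-2 and mxl-3. In reach, 14 of the 35 genes had a summit (40%, interval 23.9 to 57.9%), against 36.1% of all genes. With regions of any rank in the pooled list, 14 of 35 genes had a promoter region, against 39.3% of all genes, so the share of bHLH genes with any promoter region was close to the background. The strongest such region had a median rank of 3776 at the 14 bHLH genes and of 6486 over the 7847 genes with one.

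The distribution over roles was uneven. All 9 genes with a promoter summit came from the 12 genes of the Max network, the PAS group and the lipid and lysosome group. None of the 20 genes of the proneural and neural, Olig-like, REF-1 and mesoderm groups had a promoter summit, against 15.6% of all genes. A summit in reach was found at 3 of these 20, against 36.1% of all genes. When summits were instead given to the gene with the nearest start within 2000 bp, 8 genes had one. The share of all genes under that rule was not taken. That rule added lin-32, through its intronic summit, and dropped aha-1 and mxl-2, so the split then had 1 exception. The groups were formed with earlier results of these data known, so the split is a description and was not tested.

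**Figure D1:**
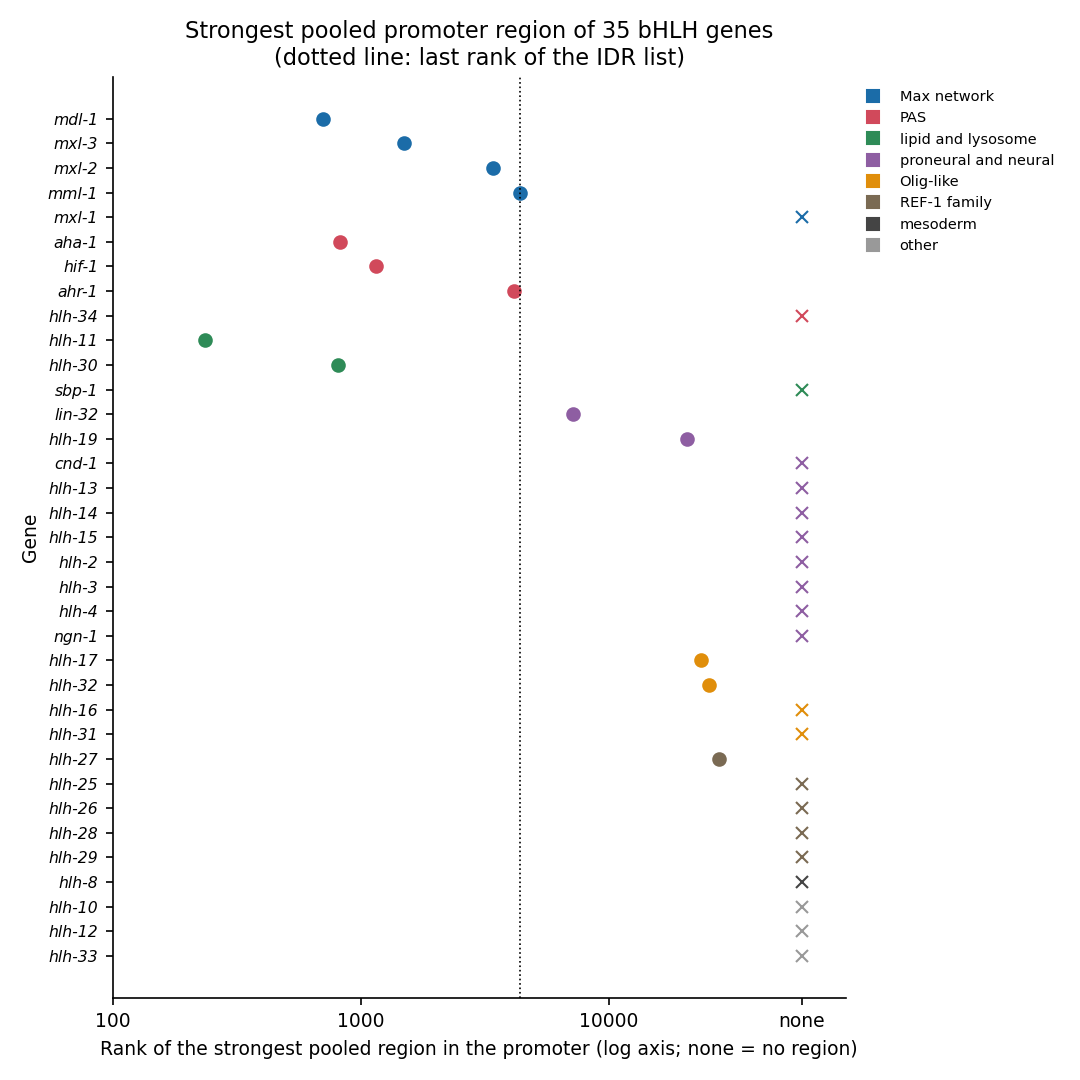
Rank of the strongest pooled region in the promoter of each of the 35 bHLH genes (log axis, 1 is the strongest), coloured by role group, with crosses for genes that had no region. The 9 genes on the left of the dotted line at rank 4384 belong to the Max network, PAS and lipid and lysosome groups, and 21 genes had no promoter region at any rank.

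The Max network comprises bHLH leucine zipper proteins that pair with one another. MXL-1 is the Max-like partner of the Mad-like repressor MDL-1, MML-1 is the Myc and Mondo-like factor that pairs with MXL-2, and MXL-3 is a Max-like factor known to repress lysosomal lipase genes in fed animals. Of these 5 genes, 4 had a promoter summit, and all but mxl-1, which had none in reach, held 17 summits in reach between them, with a median signal of 194 and a highest signal of 761. This is 17 of the 41 summits in reach of all bHLH genes.

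At mxl-3 (WBGene00003511, chromosome X, 13349639 to 13350804, minus strand) 8 summits lay in reach. There were 5 upstream of the gene, 1 in an untranslated region and 2 downstream. The promoter summit, 231 bp upstream of the start, had a signal of 194 at rank 1485, with 58.9 in replicate 1 and 136 in replicate 2. It was not the strongest of the locus. The summit 1062 bp past the gene had a signal of 296 at rank 807, with 107 in replicate 1 and 194 in replicate 2. The one 2887 bp upstream was close to it, with 290 at rank 838, and 116 and 179 in the replicates. The other 5 had signals of 94.2 to 157. One of these, at rank 2251 and 4104 bp upstream, was matched within 100 bp in replicate 2 only, with a signal of 111. Only 8 of all protein-coding genes, mxl-3 included, had as many summits in reach.

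At mdl-1 (WBGene00003163, chromosome X, 6742351 to 6743899, plus strand) 6 summits lay in reach, a number that 26 of all genes reached or passed. The promoter summit, 67 bp upstream of the start, had a signal of 319 at rank 706, with 119 in replicate 1 and 204 in replicate 2. Higher signals were found on both sides of it. The summit 112 bp past the gene had 521 at rank 282, with 187 and 322 in the replicates. The strongest, 761 at rank 104 with 269 and 473 in the replicates, lay 4541 bp upstream and 4509 bp from the start of R03E9.2, so it is as near to that gene as to mdl-1. The other 3 had signals of 249, 210 and 169, in the upstream region at 1175 bp, in an intron and upstream at 3121 bp. All 6 were matched in both replicates.

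The E-box CACGTG, the form of CANNTG that Max-type dimers are known to bind, was searched on both strands at these summits. It lay within 50 bp of 4 of the 8 summits of mxl-3 and 1 of the 6 of mdl-1, and within 100 bp of 4 and 5 of them. The shares over all 4384 summits were 6.52% and 9.67%. Within 25 bp the word lay near only 1 of the 41 bHLH summits (2.44%), against 3.76% of all summits. The word itself was frequent at mdl-1, where the reach held 13 copies or 13.0 per 10 kb, against 5.00 per 10 kb at mxl-3 and 1.77 in the genome. Windows of 101 bases centred on summits of both genes are given on the strand of the gene (ce11), because they show these words beside the 2 promoter summits that lack them. Capitals mark matches to CANNTG or, on either strand, to GGTGTG.
mxl-3, promoter, chrX:13350985-13351085, minus strand: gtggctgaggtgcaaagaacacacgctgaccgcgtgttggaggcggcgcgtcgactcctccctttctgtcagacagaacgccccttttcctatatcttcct
mxl-3, 1062 bp past the gene, chrX:13348527-13348627, minus strand: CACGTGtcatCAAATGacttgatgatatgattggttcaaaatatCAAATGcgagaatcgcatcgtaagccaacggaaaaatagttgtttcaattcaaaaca
mxl-3, 2887 bp upstream, chrX:13353641-13353741, minus strand: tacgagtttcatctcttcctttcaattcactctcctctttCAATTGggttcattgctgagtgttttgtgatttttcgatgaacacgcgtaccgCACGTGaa
mdl-1, promoter, chrX:6742234-6742334, plus strand: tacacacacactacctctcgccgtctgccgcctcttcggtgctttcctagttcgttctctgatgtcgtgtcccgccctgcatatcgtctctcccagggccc
mdl-1, 112 bp past the gene, chrX:6743961-6744061, plus strand: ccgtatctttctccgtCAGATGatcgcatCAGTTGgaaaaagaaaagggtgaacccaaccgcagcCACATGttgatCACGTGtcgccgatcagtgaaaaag

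The partners MML-1 and MXL-2 had weaker summits in their promoters. At mml-1 (WBGene00003378, chromosome III, 7370130 to 7374731, minus strand) the promoter summit, 897 bp upstream of a start, had a signal of 77.1 at rank 4363, just inside the list. It had a signal of 54.2 at rank 3938 in replicate 2 and no match within 100 bp in replicate 1, where the strongest region of the promoter had 28.3 at rank 4855. A stronger summit 1888 bp upstream had 274 at rank 918, with 112 and 163 in the replicates. Only the weak promoter summit carried the word GGTGTGA, which stands in its window as CACACC and the base before it on the opposite strand. It is shown because no other of the 41 summits held that word within 50 bp.
mml-1, promoter, chrIII:7375578-7375678, minus strand: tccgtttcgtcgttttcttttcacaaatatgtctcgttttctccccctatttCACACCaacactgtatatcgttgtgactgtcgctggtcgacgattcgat

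At mxl-2 (WBGene00003510, chromosome III, 186949 to 188131, minus strand) the single summit, 558 bp upstream, had a signal of 98.3 at rank 3417, with 35.0 in replicate 1 and 64.5 in replicate 2. It also lay 149 bp upstream of ubc-20, in whose promoter it falls, so it cannot be assigned to mxl-2 alone.

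**Figure D2:**
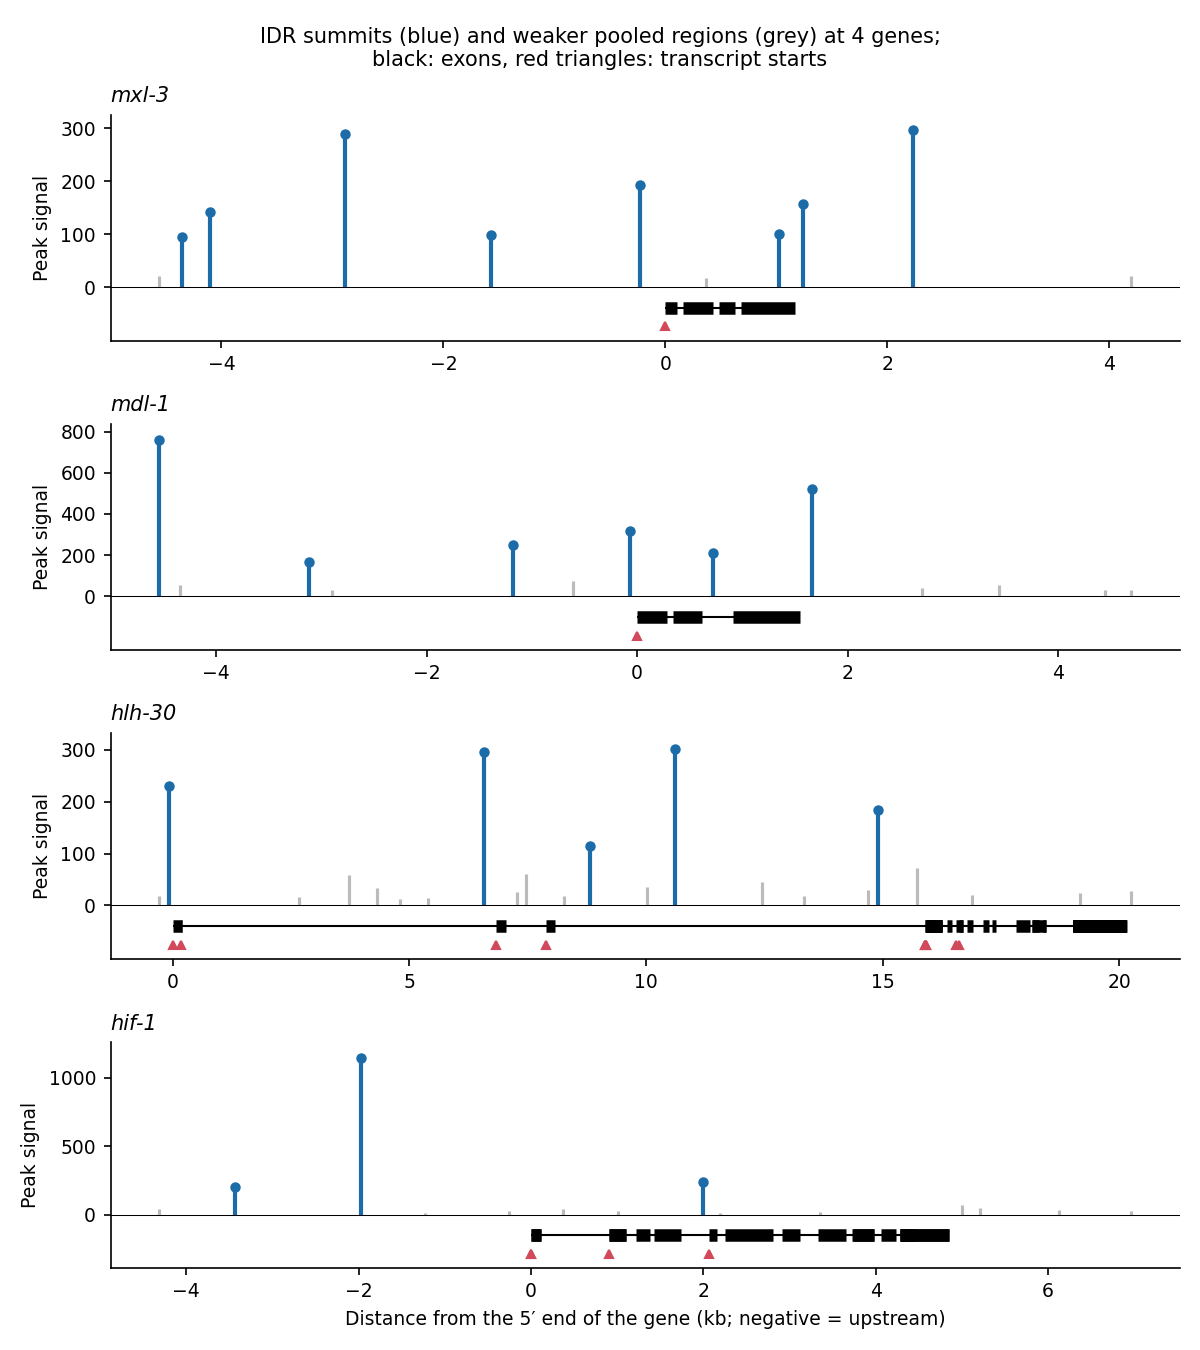
Peak signal against distance from the 5′ end of the gene (kb, negative is upstream) at mxl-3, mdl-1, hlh-30 and hif-1. Blue stems are the summits of the IDR list, grey stems are weaker pooled regions, black boxes are exons and red triangles are transcript starts. The strongest summit of each of the 4 genes lay outside its promoter, and that of hif-1, 1146, was well above the other 2 of that gene, 203 and 236.

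The PAS group holds bHLH proteins with a PAS domain. HIF-1 is the hypoxia-inducible factor, AHR-1 the aryl hydrocarbon receptor and AHA-1, the ARNT orthologue, the partner of both, and HLH-34 is related to the mammalian NPAS proteins. Of these 4 genes, 3 had a promoter summit. They held 5 summits in reach with a median signal of 236. At hlh-34 no summit lay in reach and no pooled region either.

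At hif-1 (WBGene00001851, chromosome V, 20780407 to 20785260, plus strand) 3 summits lay in reach. The strongest, 1969 bp upstream of the first start, had a signal of 1146 at rank 21 of the 4384 summits. Its signal was 452 at rank 17 in replicate 1 and 695 at rank 26 in replicate 2. It is intergenic and hif-1 is the gene with the nearest start. The promoter summit lay inside the gene, 70 bp upstream of an internal start, with 236 at rank 1152, and 81.7 and 160 in the replicates. The last, 3434 bp upstream with 203 at rank 1388, lay nearer to F38A6.4, whose start is 1604 bp away. The windows of the strongest summit and of the promoter summit are given, as the strongest carried neither an E-box nor GGTGTG.
hif-1, 1969 bp upstream, chrV:20778388-20778488, plus strand: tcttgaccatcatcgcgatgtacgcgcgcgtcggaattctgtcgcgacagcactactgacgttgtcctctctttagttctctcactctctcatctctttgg
hif-1, promoter of an internal start, chrV:20782352-20782452, plus strand: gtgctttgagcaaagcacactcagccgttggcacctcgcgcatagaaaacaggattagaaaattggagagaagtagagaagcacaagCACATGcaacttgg

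At aha-1 (WBGene00000095, chromosome I, 10193925 to 10196997, minus strand) the single summit, 274 bp upstream, had a signal of 292 at rank 823, with 106 in replicate 1 and 186 in replicate 2. It was matched at nearly the same rank in both lists, 901 and 790. The start of C25A1.15 lies 50 bp from it, so the summit belongs to a promoter shared by both genes. At ahr-1 (WBGene00000096, chromosome I, 9522550 to 9531132, plus strand) the summit lay within the gene, 287 bp upstream of an internal start. It was among the weakest of the bHLH summits, with 81.6 at rank 4135, and 36.8 and 41.2 in the replicates.

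Genes that regulate HIF-1 were in a list of 9 pathway genes that are no members of the set. Of these 9, 2 had a promoter summit and 4 had one in reach, counts too small to set apart from the 15.6% and 36.1% of all genes. At egl-9, the prolyl hydroxylase that marks HIF-1 for degradation, the summit in reach had a signal of 572 at rank 222, outside the promoter. At rhy-1, which acts with egl-9, the promoter summit had 113 at rank 2913. At vhl-1, whose product recognises hydroxylated HIF-1, none lay in reach. The promoter of unc-37, the Groucho corepressor, held a summit of 125 at rank 2632, and mdt-15, the Mediator subunit that works with SBP-1, had one of 193 at rank 1496 in reach but not in the promoter. The Hairy-related lin-22, the REF-1 family founder ref-1, the PAS gene cky-1 and the SREBP chaperone gene scp-1 had none in reach.

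The factors of lipid and lysosome control include HLH-30, the TFEB orthologue that activates autophagy and lysosome genes, SBP-1, the sterol regulatory element binding protein, and HLH-11, related to mammalian AP-4 and known to restrain lipid breakdown. All 3 genes had a summit in reach and 2 had one in the promoter. They held 10 summits with a median signal of 207 and a highest of 560.

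At hlh-11 (WBGene00001955, chromosome III, 9619711 to 9626529, plus strand) the promoter held 2 summits of 1 region. The stronger, 412 bp upstream of the first start, had a signal of 560 at rank 236, with 215 at rank 230 in replicate 1 and 335 at rank 247 in replicate 2. This was the strongest promoter summit of any bHLH gene. The other, 212 bp upstream, had 247 at rank 1078, with 88.4 and 136 in the replicates. A summit 3068 bp upstream, with 147 at rank 2155, lay in the promoter of hcp-3, and one in an intron had 117 at rank 2808.

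At hlh-30 (WBGene00020930, chromosome IV, 4014793 to 4034951, minus strand), the longest of the member genes, 5 summits were spread over the gene. The 5′ promoter summit, 86 bp upstream of the first start, had a signal of 230 at rank 1197, with 75.4 and 153 in the replicates. A summit 242 bp upstream of an internal start had 295 at rank 810, with 114 and 179 in the replicates. An intronic summit had 302 at rank 781, with 99.6 and 196. The intronic and the internal promoter summit changed order between the replicates, and the 5′ summit was the lowest of the 3 in both. The other intronic summits had 184 and 114. The gene has 10 annotated starts, more than any other member, and 71 of all genes had 5 or more summits in reach.

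Windows of the promoter summits of hlh-11 and hlh-30 and of the weakest intronic summit of hlh-30 follow, because that last one held the only CACGTG within 50 bp of a summit outside mxl-3 and mdl-1. The second window of hlh-11 held GGTGTG, which within 50 bp of a summit was otherwise seen only at mml-1. Capitals mark CANNTG or GGTGTG as above.
hlh-11, promoter, 412 bp upstream, chrIII:9619249-9619349, plus strand: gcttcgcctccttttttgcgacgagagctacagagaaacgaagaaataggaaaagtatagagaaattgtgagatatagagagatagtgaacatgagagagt
hlh-11, promoter, 212 bp upstream, chrIII:9619449-9619549, plus strand: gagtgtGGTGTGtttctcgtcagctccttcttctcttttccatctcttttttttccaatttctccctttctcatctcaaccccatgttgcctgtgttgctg
hlh-30, promoter of the first start, chrIV:4034987-4035087, minus strand: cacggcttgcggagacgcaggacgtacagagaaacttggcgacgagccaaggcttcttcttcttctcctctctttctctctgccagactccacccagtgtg
hlh-30, promoter of an internal start, chrIV:4028319-4028419, minus strand: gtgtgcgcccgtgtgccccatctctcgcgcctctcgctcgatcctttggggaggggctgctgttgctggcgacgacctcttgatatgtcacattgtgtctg
hlh-30, intron, chrIV:4026075-4026175, minus strand: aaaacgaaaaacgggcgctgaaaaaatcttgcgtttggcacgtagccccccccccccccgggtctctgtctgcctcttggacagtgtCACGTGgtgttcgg

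At sbp-1 (WBGene00004735, chromosome III, 11428367 to 11442566, minus strand) the single summit lay 2371 bp upstream, outside the promoter. It was weak, with a signal of 86.7 at rank 3884 and 38.7 in replicate 1, and it had no match within 100 bp in replicate 2. The strongest region of replicate 2 in reach of the gene had 57.4 at rank 3700.

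The proneural and neural group holds orthologues of the fly and vertebrate genes that specify neurons. LIN-32 is the Atonal orthologue, NGN-1 is neurogenin, CND-1 is NeuroD-like, HLH-3, HLH-4 and HLH-14 are of the Achaete-Scute type, and HLH-2 is the E protein with which many of them dimerise. None of the 10 genes had a promoter summit, and lin-32 alone had summits in reach. At lin-32 (WBGene00003018, chromosome X, 2229055 to 2230122, minus strand) there were 3. One of signal 167 at rank 1828 lay 26 bp from a tRNA gene past the 3′ side of lin-32, with 67.4 and 94.1 in the replicates. One of 134 at rank 2407 lay 3990 bp upstream in the promoter of T14F9.2. The intronic summit, the only one of the 3 that was neither beside a small RNA gene nor in the promoter of another gene, had 77.5 at rank 4344 at the very end of the list, with 24.5 at rank 5681 in replicate 1 and 51.4 at rank 4178 in replicate 2. In the promoter of lin-32 the strongest pooled region had a signal of 46.1 at rank 7172, below the list, with a −log10 q-value of 3.31 against 4.01 for the summits of the list.

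For the other 9 neural genes the pooled list was searched at all ranks. The hlh-19 promoter held a region of signal 16.9 at rank 20680, and the other 8 promoters held none. In reach, hlh-4 had 76.2 at rank 4425 and hlh-13 had 71.2 at rank 4732, both just outside the list, whereas ngn-1, hlh-15 and cnd-1 had regions of 21.2, 16.03 and 12.3 only. No pooled region lay in reach of hlh-2, hlh-3 or hlh-14. At hlh-14 each replicate's own list held a region in reach. The signals were 47.8 at rank 2685 in replicate 1 and 45.9 at rank 4677 in replicate 2. Only that of replicate 1 was among the 4384 strongest regions of its replicate.

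The 4 Olig-like genes, of which hlh-17, hlh-31 and hlh-32 are closely related and known from glia, had no summit in reach. The pooled regions there were weak, with 15.2 at rank 23575 in the promoter of hlh-17 and 14.2 at rank 25400 in that of hlh-32. The first of them was also the strongest in reach of hlh-31, which lies next to hlh-17, and hlh-16 had none. In hlh-8, the Twist orthologue that patterns postembryonic mesoderm, no pooled region lay in reach. Of hlh-10, hlh-12 and hlh-33, the first had no pooled region in reach and hlh-12 had one of 60.9 at rank 5510. At hlh-33 (WBGene00021446, chromosome III, 1855392 to 1859602, plus strand) a strong summit of 645 at rank 160, with 263 and 383 in the replicates, lay 139 bp past the end of the gene. That summit is in the promoters of ddp-1 and ttc-7, with the start of ddp-1 147 bp away.

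The REF-1 family proteins carry a pair of bHLH domains and several are Notch targets in the embryo. None of hlh-25, hlh-26, hlh-27, hlh-28 and hlh-29 had a promoter summit. In reach, hlh-27 had 2 summits and hlh-29 had 3, and these included the strongest summit of any bHLH gene. At hlh-27 (WBGene00001966, chromosome II, 5539075 to 5540213, minus strand) it had a signal of 1234 at rank 15, with 445 at rank 20 in replicate 1 and 786 at rank 15 in replicate 2. It lay 3347 bp upstream of hlh-27 and 38 bp from sls-2.2, an snRNA gene for a spliced leader of the SL2 type. The second summit of the same region, with 272 at rank 928, lay 86 bp from sls-2.2, and ins-13 was the protein-coding gene with the nearest start to both. The promoter of hlh-27 itself held only a pooled region of 13.1 at rank 27647. No pooled region lay in reach of hlh-25 or hlh-26, and the strongest in reach of hlh-28 had 17.1 at rank 20498.

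At hlh-29 (WBGene00001968, chromosome X, 17547492 to 17548639, minus strand) all 3 summits lay 1760 to 2964 bp past the gene. The strongest had a signal of 426 at rank 405, with 136 and 281 in the replicates. The others had 148 at rank 2127 and 105 at rank 3172. Of the 36-base words in the windows of the strongest and of the rank 2127 summit, 53.03% and 54.5% occur elsewhere in the genome, and the windows share an identical run of 68 bases on opposite strands, 1204 bp apart. Both windows are printed to show the inverted copies, with capitals for CANNTG. Whether reads of one copy were counted at the other was not tested. The window of the strongest hlh-27 summit is given beside them because it is the site nearest to the snRNA gene.
hlh-27, beside sls-2.2, chrII:5543510-5543610, minus strand: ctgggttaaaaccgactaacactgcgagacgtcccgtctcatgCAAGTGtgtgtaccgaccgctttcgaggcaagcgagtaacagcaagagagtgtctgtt
hlh-29, rank 405, chrX:17544478-17544578, minus strand: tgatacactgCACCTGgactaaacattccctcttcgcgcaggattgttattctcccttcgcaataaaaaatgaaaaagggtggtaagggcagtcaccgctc
hlh-29, rank 2127, chrX:17545682-17545782, minus strand: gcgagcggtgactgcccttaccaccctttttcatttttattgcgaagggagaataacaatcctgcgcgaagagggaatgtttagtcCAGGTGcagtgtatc

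Repeated sequence was measured in all member promoters as well. In those of hlh-28 and hlh-29, 72.5% and 72.0% of the 36-base words occur elsewhere in the genome. The shares were 26.6% at hlh-25, 26.3% at hlh-27, 22.8% at hlh-17 and 9.09% at ngn-1, and at most 1.34% at the others. How reads from repeated sequence were treated is not given in the sources used here, and the part of repeats in the missing regions at hlh-28 and hlh-29 was not tested.

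**Figure D3:**
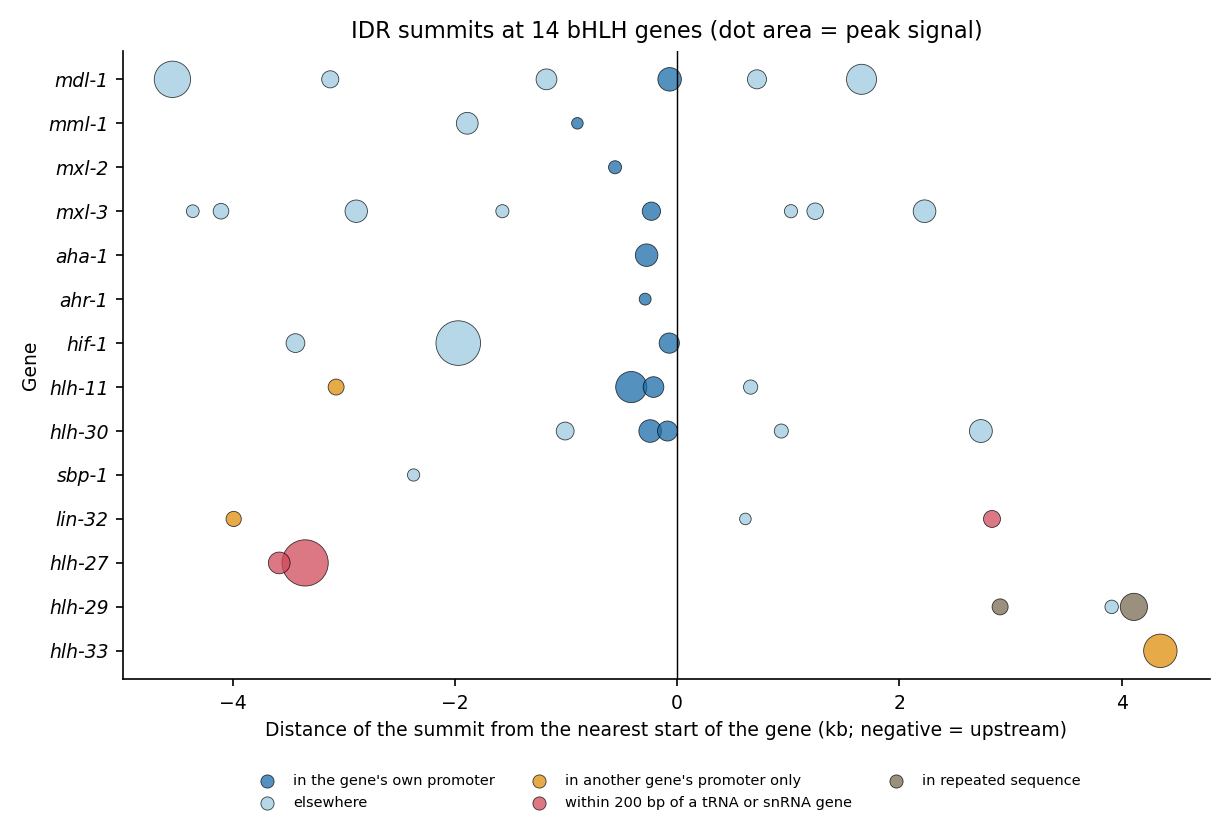
The 41 summits in reach of 14 bHLH genes by distance from the nearest start of the gene (kb, negative is upstream), with the dot area in proportion to the peak signal and the colour giving the setting of the summit. Dark blue promoter dots appear in the upper 9 genes, and the large dots of hlh-27, hlh-29 and hlh-33 are those beside an snRNA gene, in repeated sequence or in the promoter of another gene.

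Summits that lay within 200 bp of a small RNA gene, had over 50% repeated words or fell only in promoters of genes that are no members were counted apart. Without them, all 17 summits of the Max network, all 5 of the PAS group and 9 of the 10 of the lipid and lysosome group remained. In the REF-1 family 1 of 5 remained, in the neural group 1 of 3, and at hlh-33 none. Small RNA genes lay near 7.32% of the bHLH summits and 6.61% of all summits, and over 50% repeated words occurred at 4.88% and 1.03%. The rule on promoters of other genes cannot set apart a summit in a member's own promoter, so groups with promoter summits keep more by it. It kept the shared promoter summits of aha-1 and mxl-2. Also kept were mdl-1 rank 104 and hif-1 rank 1388, which lie nearer to the start of another gene. No share over all summits was taken for that rule.

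As a whole the 41 summits, from 39 regions, were stronger than the typical summit of the list. Their median signal was 203 (interval of the median 147 to 274) against 145 over all, and 28 of the 41 were among the 2192 strongest. They lay less often in promoters by count, with 14 (34.1%, interval 20.1 to 50.6%) in any promoter against 56.7% of all summits. Positions outside protein-coding genes and promoters, called intergenic here, made up 48.8% (interval 32.9 to 64.9%) against 25.7%, and introns 14.6% against 16.1%. The 3 bHLH summits beside small RNA genes were classed as intergenic. By position, 23 lay upstream of the member, 10 inside it and 8 downstream. A member was the gene with the nearest start for 32 of the 41. These shares describe a few loci more than many genes, since mxl-3, mdl-1, hlh-30 and hlh-11 together carry 23 of the summits. The intervals over summits count each summit as independent. Summits of the same gene or region need not be, so these intervals may be too narrow to set the shares apart from those over all.

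Summits were crowded at the genes that had any. The reach of the 35 genes covered 356 kb with 11.5 summits per 100 kb, against 4.44 for all genes, at the same median reach of 10.0 kb. The bHLH genes with any summit in reach had a median of 2.5, against 1 over all genes with any. At least 3 summits lay in reach of 7 bHLH genes (20%), against 3.02% of all genes, and at least 5 in reach of 3 (8.57%), against 0.355%. These counts are not adjusted for length, and hlh-30, which is among the 3, has a reach of 26.6 kb. The 7 include lin-32 and hlh-29, most of whose summits were set apart above. Of the 41 summits, 20 (48.8%) lay on the X chromosome, against 19.8% of all summits, and they came from mxl-3, mdl-1, lin-32 and hlh-29. The X holds 25.7% of the bHLH genes and 13.7% of all genes, and its part in the crowding was not tested. Genes with more than 1 annotated start can have more than 1 promoter window. A promoter summit was found at 5 of the 7 members with more than 1 start and 4 of the 28 with 1, against 24.0% and 12.6% of all genes. Those 5, ahr-1, hif-1, hlh-11, hlh-30 and mml-1, are all of the Max network, PAS and lipid and lysosome groups. The part of the number of starts in these counts and in the split over roles was not tested.

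Over the 41 summits, CANNTG lay within 50 bp of 20 (48.8%, interval 32.9 to 64.9%), against 42.4% of all summits. CACGTG, which is one form of it, lay near 6 (14.6%, interval 5.57 to 29.2%), against 6.52%, and all 6 were at mxl-3, mdl-1 and hlh-30. Within 25 bp it was near 1 summit (2.44%, against 3.76%) and within 100 bp near 11 (26.8%, interval 14.2 to 42.9%, against 9.67%). Of these 11, 10 were at the Max network genes, where mdl-1 has many copies of the word. Here too the intervals count summits of the same gene as independent. The T-box word GGTGTGA lay within 50 bp of 1 summit (2.44%, against 0.958%), and the shorter GGTGTG contained in it lay near 2 (4.88%, against 5.20%). All words were searched on both strands. The windows had a GC content of 44.6%, against 46.5% over all.

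The replicates were compared at the same 41 summits, which come from a list made from both of them. A match within 100 bp was found in both replicate lists for 38, in replicate 1 for 39 and in replicate 2 for 40. The unmatched ones were the mml-1 promoter summit and 1 of mxl-3 in replicate 1, and that of sbp-1 in replicate 2. Among the 4384 strongest regions of a replicate, 87.8% were found in replicate 1 and 92.7% in replicate 2, against 87.3% and 91.8% of all summits. Over the 38 matched summits the ranks in the replicates had a Spearman rho of 0.904, against 0.844 over 4260 matched summits, as a description of points that share 2 libraries. Signals were higher in replicate 2 by a median ratio of 1.72, against 1.61 over all. Ranks differed widely at some summits, such as the hlh-29 summit at rank 3172, which was at rank 7901 in replicate 1 and 3167 in replicate 2, and the weaker hlh-27 summit, at 1154 and 309.

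**Figure D4:**
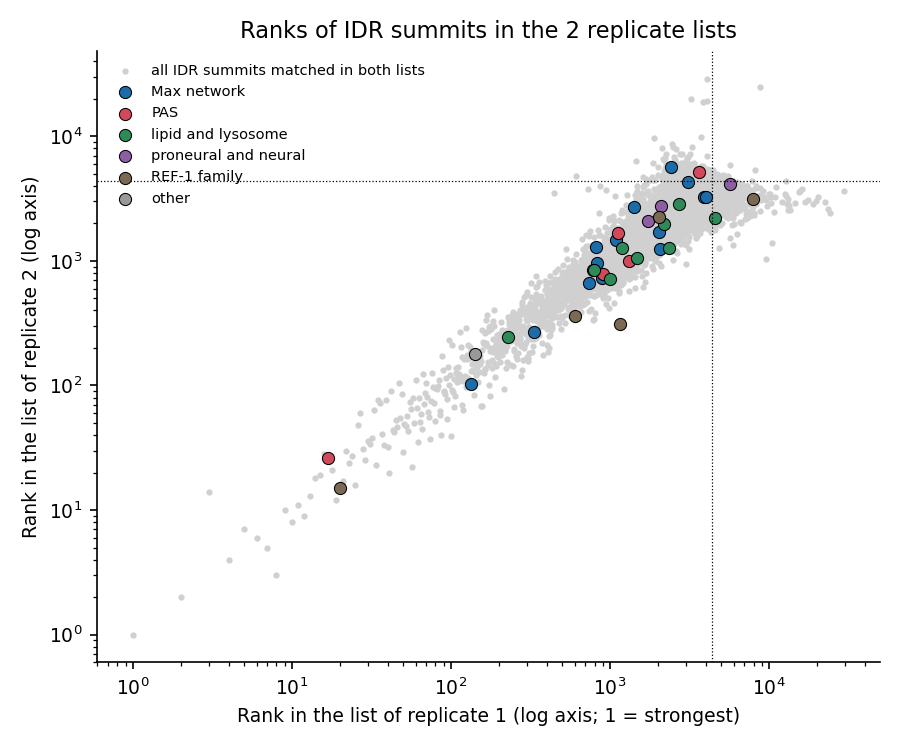
Rank of each summit in the list of replicate 1 (x, log axis) and of replicate 2 (y, log axis), with all matched summits in grey and 38 bHLH summits in the colour of their role group. Dotted lines mark rank 4384. The strongest bHLH summits, at hif-1 (ranks 17 and 26) and hlh-27 (ranks 20 and 15), were near the top of both lists.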

How the data were processed

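ChIP-seq of TBX-2-GFP (anti-GFP, per the labels' description) was deposited as peak lists for 2 biological replicates of 1 group, for both pooled and after IDR thresholding. Per the labels the assemblies are ce10 and ce11, and the ce11 lists were used. The peak signal was deposited by the authors on a scale that is not stated. The deposited −log10 q-value was 4.01 for all IDR summits and was used to describe weaker pooled regions only. Aligner, caller, IDR threshold and depth are not given in the sources used here.

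Summits were joined to Ensembl release 115 gene models (WBcel235, with the same chromosomes as ce11), counted from 1. Each IDR summit was paired with the closest summit of a replicate list, at most 100 bp away. Words were searched within 50 bp on both strands. Repeated sequence was measured as the share of 36-base words that occur elsewhere in the genome. Printed sequences are from the reference genome. Python 3.11.15, pandas 2.3.3, numpy 2.4.6, scipy 1.17.1 and matplotlib 3.10.9 were used, and the counting was tested on simulated data.

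Members, role groups, pathway genes and named genes were chosen with earlier results of these data known. Every member is accounted for. Full values are given for members with a promoter summit, the 10 with the strongest summit in reach, those with the most summits and those next to the list's threshold. No test over members was made. Alternatives were other promoters, reaches, list lengths, match distances and word windows, and each replicate's own list. Control reads and signal tracks were not used here.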

Additional observations from a re-analysis of the deposited data

How the results depend on the processing

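With each replicate's strongest regions alone, the number of bHLH genes with a promoter summit was 8 with either, that with a summit in reach 14 to 15 and the number of summits in reach 41 to 44. Without replicate 1 ahr-1 was lost from the promoter count, and without replicate 2 mml-1 was lost. In reach, hlh-13 was added and ahr-1 lost without replicate 1, and hlh-14 was added without replicate 2. Both added genes are of the proneural and neural group. The promoter count stayed between 6 and 10 under all promoter definitions and list lengths tried, with 6 in the 2192 strongest summits (9.49% of all genes) and 10 in the 8768 strongest pooled regions (23.4%), where lin-32 was added. Giving each summit to the nearest start within 2000 bp gave 8, with lin-32 added and aha-1 and mxl-2 dropped. It was 7 without summits shared with another promoter, a choice made after seeing the data. For neither of these rules was the share of all genes taken. A reach of 10 kb gave 22 genes (52.6% of all genes) and 63 summits, a reach of 2 kb gave 24 summits, and the 8768 strongest pooled regions gave 70. With as many pooled regions as the ce10 list holds (5737, also chosen after seeing the data), 17 genes had a region in reach (41.5% of all), with hlh-4, hlh-12 and hlh-13 added. The share of summits with CANNTG was 70.7% within 100 bp and 26.8% within 25 bp, and that with CACGTG was 26.8% and 2.44%. The changes with the reach, the list length and the word window follow from searching more or less sequence or more regions. For the genes lost with 1 replicate the cause was not tested. No paired analysis was possible because there is 1 group. With no read counts, how deep a missing summit was sampled is unknown, and with 35 genes the intervals of the shares are wide.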
